A study of Mus musculus with 20 samples.

Results

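The genes described here are Gata1, Gata2 and Gata3, the 3 GATA transcription factors of blood cells, and Zfpm1, which encodes their cofactor FOG1. They were taken by name from the gene tables of all 20 RNA-seq libraries, and are 4 of the 53379 gene identifiers in those tables. Gata1, Gata2 and Zfpm1 had enough reads to be tested between groups, and Gata3 did not.

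The cells were lineage-negative blood progenitors of the mouse, meaning cells without the surface markers of mature blood lineages. Each was infected with a retroviral vector of the MSCV type and cultured for 3 days before RNA was taken. The 5 groups of 4 libraries were wild-type cells with a control vector, and 4 groups that all lack the Gata2 enhancer labelled -77: with the control vector, with a Gata2 vector, or with a vector coding for GATA2 changed at 1 residue (R307W or T354M). The control vector is called empty below, and cells without the enhancer are called enhancer-null. For the wild-type, enhancer-null empty and Gata2 vector groups the labels give fetal liver as the tissue, fetal age E14.5, the strain C57BL/6J and a medium with conditioned interleukin 3 and stem cell factor. The labels of the R307W and T354M groups give the cell type, the vector and the culture time but not these details, so any difference in handling cannot be told apart from the comparisons of these 2 groups with the others. Whether replicates were separate cultures or animals is not stated in the labels, so the p-values reflect only how much these libraries vary.

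GATA factors bind DNA around the core letters GATA through a pair of zinc fingers. The C-terminal finger makes most of the DNA contact, and the N-terminal finger adds to it and is the surface that FOG1 docks on. FOG1 does not itself bind GATA sites but brings corepressor complexes such as NuRD to GATA factors. In blood, GATA2 acts in stem and progenitor cells and in mast cells, GATA1 takes over many of its sites as red cells and megakaryocytes form, and GATA3 is the family member of T cells and innate lymphoid cells. FOG1 is needed for red cell and megakaryocyte formation. Inherited changes of human GATA2 predispose to bone marrow failure and leukaemia.

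On GRCm38 (mm10), Gata1 (ENSMUSG00000031162.14) spans chrX:7959260-7978071 on the minus strand and Gata2 (ENSMUSG00000015053.14) spans chr6:88193891-88207032 on the plus strand. Gata3 (ENSMUSG00000015619.10) spans chr2:9857078-9890034 on the minus strand, and Zfpm1 (ENSMUSG00000049577.15) spans chr8:122282141-122337251 on the plus strand. The 2 protein changes in the vectors fall in coding exons of the zinc fingers. Each codon is printed with 12 bases on either side, from the GENCODE M21 transcripts of the mouse genome, because the same residue stands in all 3 factors. The capitals mark the codon. The sequence held by the vectors is not given in the labels, and these are the reference genes.

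Gata2, codon changed in R307W (N-terminal finger, exon 4 of 6, chr6:88202466-88202468): acccctctctggCGAcgagatggcacg
Gata1, codon 216 (N-terminal finger, exon 4 of 6, chrX:7962020-7962022): actccactgtggCGGagggacaggaca
Gata3, codon 275 (N-terminal finger, exon 4 of 6, chr2:9868857-9868859): accccactgtggCGGcgagatggtacc
Gata2, codon changed in T354M (C-terminal finger, exon 5 of 6, chr6:88204625-88204627): gcaaattgtcagACGacaaccaccacc
Gata1, codon 263 (C-terminal finger, exon 5 of 6, chrX:7960664-7960666): actaactgtcaaACGaccactacaaca
Gata3, codon 322 (C-terminal finger, exon 5 of 6, chr2:9863176-9863178): gcgaactgtcagACCaccaccaccacc

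The windows are less alike in DNA than the fingers are in protein. Around the R307W codon, 17 of 27 bases of Gata2 are the same in Gata1 and 22 in Gata3, and around the T354M codon the numbers are 19 and 23. Over the 25 residues of the N-terminal finger, Gata1 and Gata3 each share 24 (96%) with Gata2, and over those of the C-terminal finger Gata1 shares 23 (92%) and Gata3 all 25 (100%).

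Library totals ran from 22330475 to 33245876 expected counts, with 17.9 to 24.6% from the mitochondrial ribosomal RNA mt-Rnr2. All 7 genes of a blood progenitor list were detected in every library, which alone does not test the labelled cell type. The stem cell factor receptor Kit was at 14.17 to 32.5 TPM, the leukocyte antigen Ptprc at 43.45 to 169.03 TPM and Flt3 at 1.12 to 26.51 TPM. By edgeR 4 of the 7 were called higher and 3 lower in enhancer-null empty than in wild-type libraries, where 43.3% of all genes were called. TPM is a gene's transcript abundance, divided by transcript length and scaled to the same total in each library. The replicate 4 library was the deepest of its group in all 5 groups and held the highest TPM of its group in 13 of 15 cases for Gata1, Gata2 and Zfpm1. Without replicate 4 of every group, none of the edgeR calls on these 3 genes changed.

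Gata2 is the gene whose enhancer was deleted, and it fell in the enhancer-null cells and was far above that level with each vector. In wild-type cells its 4 libraries, replicates 1 to 4 in order here and below, held 16.04, 10.05, 13.74 and 17.11 TPM, and in enhancer-null cells with the empty vector 2.20, 1.96, 1.57 and 2.38 TPM. With the Gata2 vector the values were 30.81, 33.21, 21.38 and 48.20 TPM, with R307W 29.91, 17.02, 20.19 and 37.79 TPM, and with T354M 44.70, 20.83, 23.47 and 35.58 TPM. All enhancer-null empty libraries lay below all others, and the 3 vector groups overlapped one another. The loss left 14.2% of the wild-type mean (14.2 ± 3.12 and 2.03 ± 0.350 TPM, SD, n = 4 and 4), and in counts the log2 difference was -2.93 (SE 0.36, edgeR adjusted p = 2.88e-06).

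Reads of the vector's coding sequence and of the chromosomal gene are counted together for Gata2, so the vector values are sums of both. Relative to the empty vector in enhancer-null cells, the log2 difference of Gata2 was 3.80 with the Gata2 vector (SE 0.37, adjusted p = 2.41e-06), 3.24 with R307W (SE 0.36, adjusted p = 7.43e-06) and 3.16 with T354M (SE 0.36, adjusted p = 6.65e-06). The vectors did not differ past the test: R307W minus Gata2 vector was -0.56 (SE 0.32, adjusted p = 0.752), T354M minus Gata2 vector -0.63 (SE 0.32, adjusted p = 0.280) and T354M minus R307W -0.07 (SE 0.32, adjusted p = 0.992). With the replicate number as a block, which pairs these groups, T354M minus Gata2 vector was called at -0.62 (adjusted p = 0.028). Against wild-type cells, counts put Gata2 higher by 0.86 with the Gata2 vector (SE 0.33, adjusted p = 0.0510), 0.31 with R307W (SE 0.32, adjusted p = 0.511) and 0.23 with T354M (SE 0.32, adjusted p = 0.617), none of them called. On the TPM scale, which divides by the length of the transcripts read, limma called Gata2 higher than in wild-type cells in all 3 vector groups, by 1.14, 0.80 and 1.04 on log2(TPM + 1) (adjusted p = 0.00351, 0.0293 and 0.00536).

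Gata1, the GATA factor of red cells, megakaryocytes, mast cells and eosinophils, was the member that fell furthest without the enhancer and the one that separated the 2 variants. The wild-type libraries held 42.39, 40.73, 51.97 and 46.1 TPM and the enhancer-null empty libraries 2.92, 3.44, 2.25 and 3.69 TPM. The Gata2 vector gave 28.76, 24.61, 16.75 and 35.64 TPM, R307W 23.06, 14.93, 13.51 and 32.09 TPM, and T354M 8.85, 3.41, 5.34 and 11.43 TPM. The Gata2 and R307W groups overlapped each other. All T354M libraries lay below both of those groups, and the lowest of them lay inside the range of the empty vector.

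Enhancer loss left Gata1 at 6.79% of its wild-type mean (45.3 ± 4.98 and 3.08 ± 0.637 TPM), with a log2 difference in counts of -4.03 (SE 0.38, adjusted p = 1.44e-07). With the Gata2 vector it stood at 58.4% of wild type, with R307W at 46.1% and with T354M at 16%. Relative to the empty vector the rise was 3.13 on the log2 scale with the Gata2 vector (SE 0.37, adjusted p = 1.49e-05), 2.73 with R307W (SE 0.37, adjusted p = 5.37e-05) and 1.15 with T354M (SE 0.36, adjusted p = 0.0340). The call for T354M was not made with the 8 libraries of that comparison alone (adjusted p = 0.0506), nor without enhancer-null empty replicate 1, 2 or 3 or T354M replicate 1 or 4 (adjusted p = 0.0717 to 0.195).

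Between vectors, Gata1 was lower with T354M than with the Gata2 vector (7.26 ± 3.58 against 26.4 ± 7.90 TPM, log2 difference -1.99, SE 0.35, adjusted p = 8.35e-04) and lower than with R307W (log2 difference -1.58, SE 0.35, adjusted p = 0.0118). The second of these calls was not made without R307W replicate 4 (-1.24, adjusted p = 0.0683), without T354M replicate 3 (-1.47, adjusted p = 0.0501) or with those 8 libraries alone (adjusted p = 0.122). R307W and the Gata2 vector were not told apart for Gata1 (log2 difference -0.40, SE 0.33, adjusted p = 0.966; with the replicate block -0.43, adjusted p = 0.496), which does not show that they act alike. Within same-numbered libraries, Gata1 in CPM was below the Gata2 vector with R307W in 4 of 4 pairs, and so were Gata2 and Zfpm1, whose blocked differences were -0.56 (adjusted p = 0.134) and -0.29 (adjusted p = 0.783). No vector brought Gata1 up to the wild-type range. The log2 difference from wild type was -1.3 with R307W (SE 0.34, adjusted p = 0.00557), -2.89 with T354M (SE 0.36, adjusted p = 3.78e-06) and -0.90 with the Gata2 vector (SE 0.33, adjusted p = 0.0481). The last of these was no longer called without any 1 of the 8 libraries except Gata2 vector replicate 4 (adjusted p = 0.0583 to 0.161), although the 2 groups did not overlap.

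Zfpm1, the FOG1 gene, also fell without the enhancer, and with the Gata2 and R307W vectors its mean was a smaller part of the wild-type mean than that of Gata1 or Gata2. The wild-type libraries spread widely, at 30.98, 14.88, 25.95 and 42.15 TPM, and the enhancer-null empty libraries held 2.65, 1.77, 3.28 and 4.09 TPM. With the Gata2 vector the values were 10.26, 9.22, 6.87 and 21.31 TPM, with R307W 10.46, 7.98, 6.52 and 13.21 TPM, and with T354M 9.12, 5.57, 7.52 and 9.76 TPM. In TPM, all vector libraries were above all empty-vector enhancer-null libraries. Gata2 vector replicate 4 was the only vector library inside the wild-type range of TPM. Neither statement held in CPM, which is not divided by length. There T354M replicate 2 (4.94) lay below enhancer-null empty replicate 4 (6.89). R307W replicate 4 (22.8) lay above wild-type replicate 2 (17.8) and so inside the wild-type range.

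The loss left Zfpm1 at 10.3% of its wild-type mean (28.5 ± 11.3 and 2.95 ± 0.982 TPM; log2 difference -3.27, SE 0.47, adjusted p = 1.78e-05). The Gata2 vector brought it to 41.8% of wild type, with a log2 difference from the empty vector of 2.06 (SE 0.46, adjusted p = 0.00414). R307W brought it to 33.5% (log2 difference 1.71, SE 0.45, adjusted p = 0.0146), a call not made without R307W replicate 4 (1.40, adjusted p = 0.0705). T354M gave 28.1%, which did not pass the test in counts (log2 difference 1.13, SE 0.45, adjusted p = 0.0925) but was called by the DESeq2 test (adjusted p = 0.0448) and by limma on log2(TPM + 1) (adjusted p = 0.0188).

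Zfpm1 did not separate the vectors past the test. The log2 difference was -0.34 for R307W minus Gata2 vector (SE 0.43, adjusted p = 0.999), -0.92 for T354M minus Gata2 vector (SE 0.43, adjusted p = 0.232) and -0.58 for T354M minus R307W (SE 0.43, adjusted p = 0.755). Blocking on replicate number called the second, at -0.92 (adjusted p = 0.0115). Against wild-type cells Zfpm1 was lower by a log2 difference of -1.22 with the Gata2 vector (SE 0.43, adjusted p = 0.0379), -1.56 with R307W (SE 0.43, adjusted p = 0.00933) and -2.14 with T354M (SE 0.44, adjusted p = 8.34e-04). The first of these was lost without wild-type replicate 1 or 4 or Gata2 vector replicate 1, 2 or 3 (adjusted p = 0.0776 to 0.165) and with those 8 libraries alone (adjusted p = 0.0651).

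**Figure D1:**
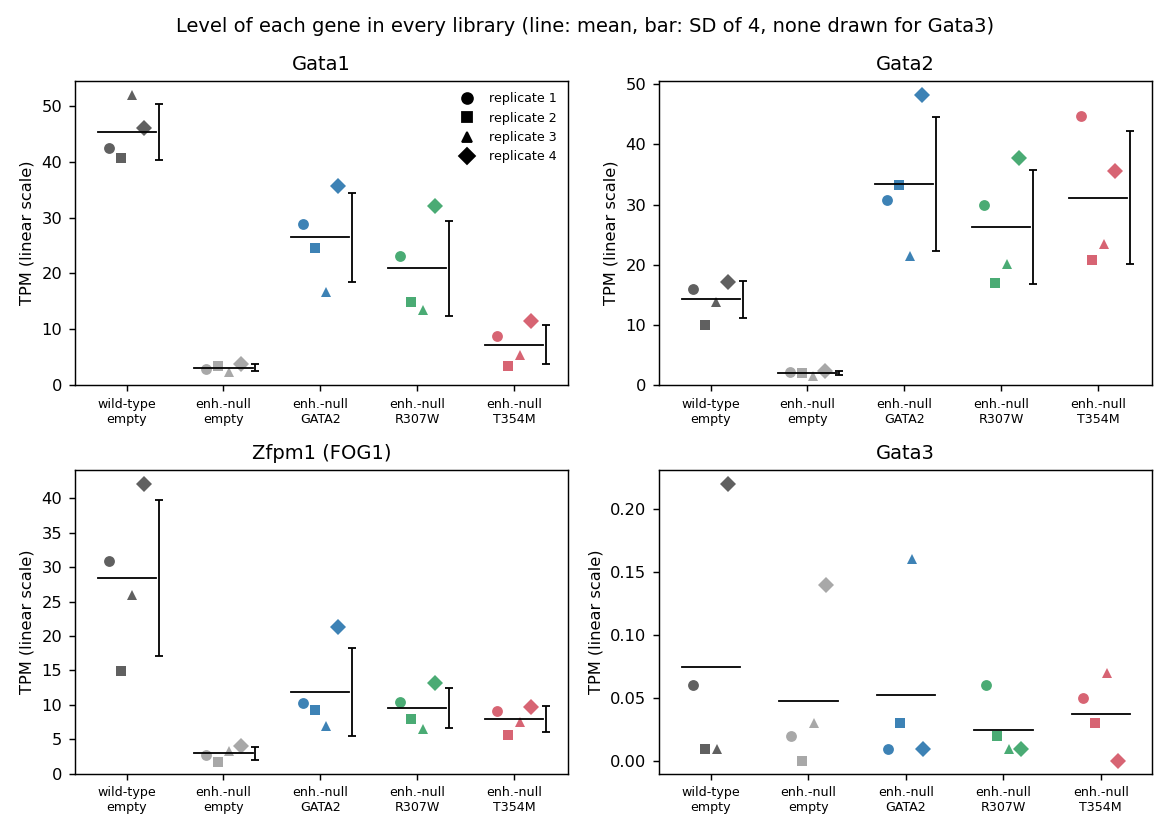
TPM of Gata1, Gata2, Zfpm1 and Gata3 on linear axes in the 20 libraries by group, with a symbol for each replicate, a line at the mean and, except for Gata3, a bar for the SD of 4. Gata1 with T354M (3.41 to 11.43 TPM) lies below Gata1 with R307W (13.51 to 32.09 TPM) while Gata2 overlaps between the 3 vectors, and Gata3 does not pass 0.22 TPM.

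Gata3 was close to absent in every group. It reached at most 0.22 TPM, in wild-type replicate 4, and had 0 to 10 counts per library and group sums of 11 in wild-type, 14 in enhancer-null empty, 7 in Gata2 vector, 8 in R307W and 13 in T354M libraries. It did not pass the filter on low counts, and in a fit without that filter its log2 differences ran from -0.99 to 0.80 with adjusted p of 0.621 to 1. Of 20 genes of T cells and innate lymphoid cells, the setting in which GATA3 acts, 9 did not pass the filter either. The other 11 passed it, among them Il1rl1, Rora and Lat, with means of 377, 45.2 and 18.1 CPM with the Gata2 vector. At the low end of the list, the T cell receptor subunit genes Cd3d and Cd3e reached 0.52 and 0.05 TPM at most. The T cell factor gene Bcl11b reached 0.03 TPM.

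Set against all genes, enhancer loss lowered 3 of the 3 members tested, where 43.3% of the 15835 genes tested were called and 23.2% were called lower. The Gata2 vector raised 3 of 3 (19.2% of all genes called, 11% higher), R307W 3 of 3 (17.5% called, 10% higher) and T354M 2 of 3 (17.4% called, 9.26% higher). Each of these counts, and that on enhancer loss, includes Gata2. Its enhancer was deleted and its vector reads are counted, so its calls here follow from the design. Apart from Gata2, enhancer loss lowered Gata1 and Zfpm1, and the Gata2 vector and R307W raised both. With T354M, edgeR called Gata1 (log2 difference 1.15) but not Zfpm1 (1.13), although the estimates were nearly equal. DESeq2 and limma called Zfpm1 there as well. Between R307W and the Gata2 vector 0 of 3 members were called by edgeR, and 0 at an unadjusted p under 0.05, by DESeq2 or by limma, where 1.73% of all genes were called. T354M against the Gata2 vector had 1 of 3 lower (10% called, 6.14% lower) and T354M against R307W 1 of 3 lower (3.49% called, 2.3% lower). Against wild-type cells 2 of 3 were lower with the Gata2 vector (30.7% called, 16% lower), with R307W (33.5% called, 17% lower) and with T354M (37% called, 18.4% lower). The comparisons share libraries, so these counts are not independent of one another. In bulk RNA, fewer cells that express a gene and less of its RNA per cell cannot be told apart.

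**Figure D2:**
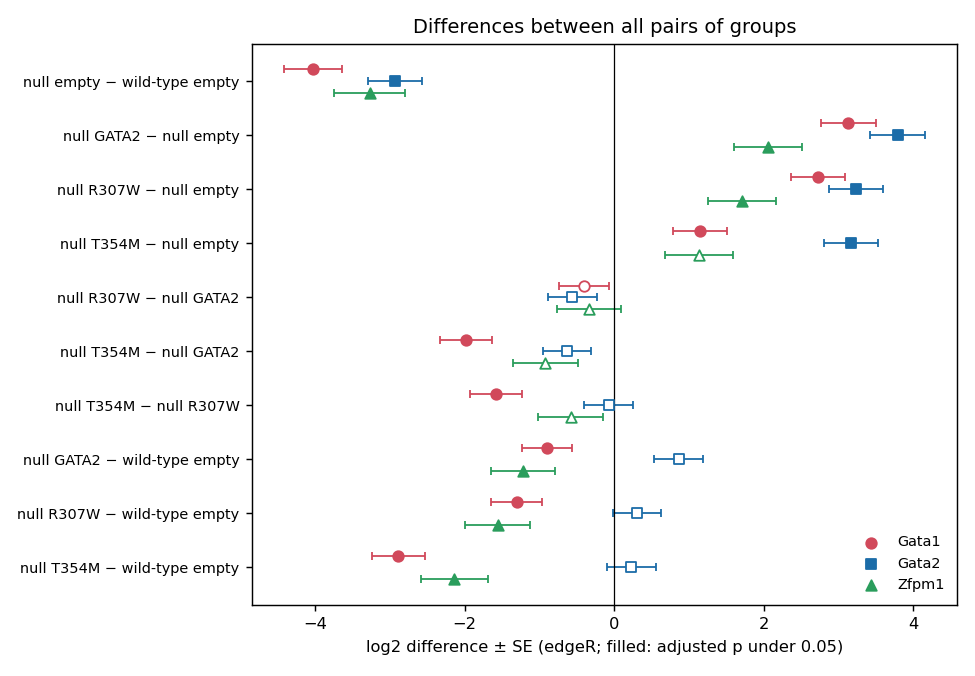
Log2 difference ± SE (edgeR) of Gata1, Gata2 and Zfpm1 on the x axis for the 10 pairs of groups on the y axis, filled where the adjusted p is under 0.05. The 3 genes move together on enhancer loss and with the Gata2 and R307W vectors, and in T354M minus Gata2 vector only Gata1 (-1.99) is filled.

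The order of levels therefore differed between genes. For Gata1, by mean CPM (counts scaled to the library total, not divided by length), it was wild type (90.7 ± 9.20), Gata2 vector (48.6 ± 18.2), R307W (36.7 ± 16.3), T354M (12.2 ± 6.62) and empty vector (5.52 ± 1.31), and of these neighbours only the Gata2 vector and R307W were not told apart by the test. For Gata2 it was Gata2 vector (80.7 ± 37.3), R307W (54.8 ± 23.7), T354M (52.0 ± 19.7), wild type (44.3 ± 9.80) and empty vector (5.79 ± 1.3), and only the last step passed the test. Zfpm1 went from wild type (42.6 ± 21.6) to Gata2 vector (18.3 ± 9.99), R307W (14.4 ± 6.00), T354M (9.65 ± 4.80) and empty vector (4.39 ± 1.72), and only the first step passed.

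The balance between the GATA factors was read from the share of Gata1 in the summed TPM of Gata1, Gata2 and Gata3. Wild-type libraries held 72.5 to 80.2% Gata1 and enhancer-null empty libraries 56.8 to 63.7%. The Gata2 vector gave 42.5 to 48.3%, R307W 40.1 to 46.7% and T354M 14.1 to 24.3%. In TPM, Gata1 was therefore the larger part in every wild-type and every enhancer-null empty library. In expected counts, not divided by length, Gata2 was slightly the larger in every enhancer-null empty library (108 to 216 counts, against 96 to 206 of Gata1). Gata2, whose reads include those of the vector, was the larger part in every library with the Gata2, R307W or T354M vector. Gata3 was at most 2.25% of the sum, in an enhancer-null empty library whose sum was 6.21 TPM.

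The mean shares were 76.1 ± 4.10% in wild-type, 59.6 ± 2.94% in enhancer-null empty, 44.3 ± 2.73% in Gata2 vector, 44.0 ± 2.98% in R307W and 18.3 ± 4.38% in T354M libraries (SD, n = 4 each). In 9 of 10 pairs of groups the shares did not overlap, and the exact two-sided permutation test gave p = 0.0286, the smallest it can give with 4 against 4 (adjusted p = 0.0318 over the 10 pairs). The exception was R307W against the Gata2 vector, with a difference of -0.221 percentage points (exact p = 0.914). The sum itself was 59.6 ± 6.61 TPM in wild-type, 5.15 ± 0.979 in enhancer-null empty, 59.9 ± 18.7 in Gata2 vector, 47.2 ± 17.9 in R307W and 38.4 ± 14.1 TPM in T354M libraries. Vector reads enter both the share and the sum through Gata2. TPM divides by the weighted transcript length, which for Gata2 was shorter with the vectors. In shares of expected counts, not divided by length, the difference from the empty vector was -10.0 percentage points with the Gata2 vector (-15.3 in TPM), -8.36 with R307W (-15.5) and -30.0 with T354M (-41.3), each with the same exact permutation p, and that of R307W from the Gata2 vector was 1.68.

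**Figure D3:**
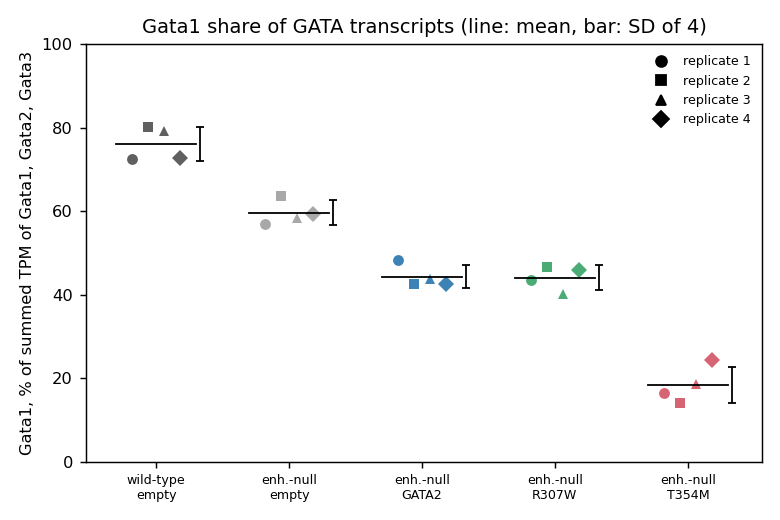
Gata1 as a percentage of the summed TPM of Gata1, Gata2 and Gata3 in each library (y axis) by group (x axis), with a line at the mean and a bar for the SD of 4. The Gata2 and R307W vectors share a band of 40.1 to 48.3%, and the 4 T354M libraries lie at 14.1 to 24.3%.

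The tables also give for each gene a transcript length, the mean over its annotated transcripts weighted by the abundance RSEM estimated for each. For Gata2, with 5 annotated transcripts of 423 to 3571 bases, it was 2863 ± 99.3 bases in wild-type and 2791 ± 237 bases in enhancer-null empty libraries. It was 2267 ± 209 bases with the Gata2 vector, 2093 ± 174 bases with R307W and 1705 ± 194 bases with T354M. The R307W and T354M libraries did not overlap the empty-vector libraries (exact permutation p = 0.0286 each), and the Gata2 vector libraries did (exact permutation p = 0.0571). None of these passed adjustment over the 16 length tests (adjusted p = 0.229, 0.229 and 0.305). The same length of Gata1 stayed between group means of 1707 and 1878 bases and that of Zfpm1 between 1207 and 1530 bases, with no call.

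**Figure D4:**
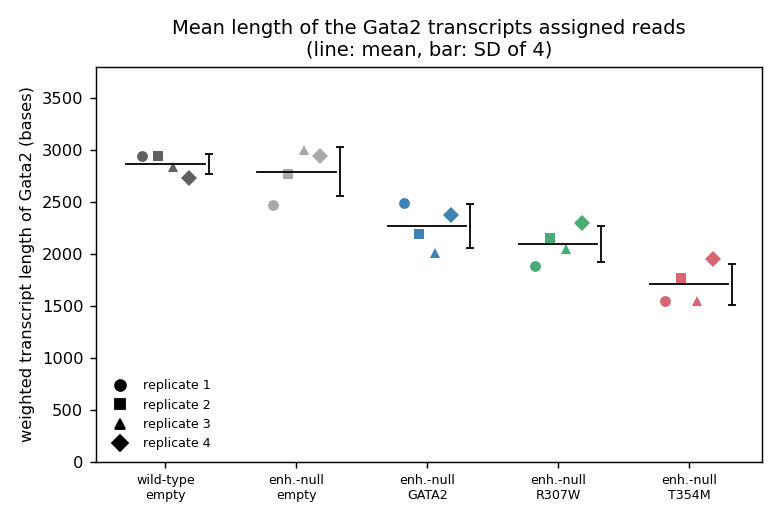
Weighted transcript length of Gata2 in bases (y axis, from 0) in each library by group, with a line at the mean and a bar for the SD of 4. The mean falls from 2791 bases with the empty vector to 1705 bases with T354M, and the 4 T354M libraries are below all empty-vector libraries.

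The other genes with the profile most like each member over the 20 libraries were found by the root mean square difference of centred log2 CPM among 10040 genes. For Gata1 the nearest was Cd55, a complement regulator, at 0.367, followed by Cela1 (0.421), Mfsd2b (0.425), Gfi1b (0.425) and Art4 (0.446), where the median gene was at 1.55. For Gata2 they were St6galnac3 (0.399), Nrarp (0.463), Syne1 (0.501), Ston2 (0.505) and Homer2 (0.550), with a median of 1.40. For Zfpm1 they were Tmc8 (0.377), Hif3a (0.425), Gfi1b (0.428), Tfr2, the second transferrin receptor (0.434), and Acp5 (0.440), with a median of 1.22. Gfi1b, a zinc finger repressor of red cells and megakaryocytes, was thus near both Gata1 and Zfpm1. Between members, Zfpm1 was the 20th nearest gene to Gata1 (0.608) and Gata2 the 232nd (1.06).

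Among the tested members, Gata1 and Zfpm1 were the pair with the nearest profiles, although other genes lay nearer to each. The 250 bases before their start sites are shown (RefSeq, GRCm38.p6, strand of the gene), with the core letters GATA in capitals where present.

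Gata1 (chrX:7967911-7968160, minus strand): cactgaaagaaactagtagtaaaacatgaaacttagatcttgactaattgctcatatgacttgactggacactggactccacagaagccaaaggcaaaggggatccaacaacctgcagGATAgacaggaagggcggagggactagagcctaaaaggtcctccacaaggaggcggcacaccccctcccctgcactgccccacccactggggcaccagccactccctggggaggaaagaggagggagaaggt
Zfpm1 (chr8:122281891-122282140, plus strand): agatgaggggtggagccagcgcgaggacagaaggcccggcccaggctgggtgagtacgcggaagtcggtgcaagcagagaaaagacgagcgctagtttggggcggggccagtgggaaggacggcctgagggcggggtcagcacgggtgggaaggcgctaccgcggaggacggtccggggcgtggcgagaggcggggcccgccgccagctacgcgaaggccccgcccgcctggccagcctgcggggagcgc

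The Gata1 window holds GATA on either strand 1 time and the Zfpm1, Gata2 and Gata3 windows 0 times. None of them holds a longer form that contains the core on either strand, the forms searched being AGATAA, its variant AGATAG, the form TGATAA, and its variant TGATAG. Of all 32851 RefSeq windows of this length, 53.6% hold the core and 26.5% a longer form.

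Of the other relatives of these genes, Trps1, an atypical GATA factor that represses transcription, went the opposite way. It rose from 4.69 ± 1.33 TPM in wild-type to 19.0 ± 2.81 TPM in enhancer-null empty libraries (log2 difference 1.98, SE 0.27, adjusted p = 9.21e-06). With the vectors Trps1 stood at 12.8 ± 3.78 TPM (Gata2, log2 difference from empty -0.64, adjusted p = 0.0939), 11.8 ± 3.53 TPM (R307W, -0.77, adjusted p = 0.0472) and 12.7 ± 6.21 TPM (T354M, -0.74, adjusted p = 0.0570). With the replicate number as a block Trps1 was called for the Gata2 vector (-0.66, adjusted p = 0.0214). For T354M Trps1 was called by DESeq2 (adjusted p = 0.0222), with DESeq2 size factors (0.0478), with no filter (0.0259) and without T354M replicate 2 (0.00811). For R307W the call was lost by limma (adjusted p = 0.142 and 0.15), with library totals (0.0557), and without any 1 enhancer-null empty library or R307W replicate 1 or 4 (0.0650 to 0.168). Gata4 and Gata6 reached group means of at most 0.31 TPM and were not called on enhancer loss. Gata6 was lower than in wild-type cells with the Gata2 vector (-2.12, adjusted p = 0.0164) and with T354M (-1.96, adjusted p = 0.0193), both lost without wild-type replicate 1 (adjusted p = 0.0698 and 0.0863) or without replicate 4 of all groups, and the second also without T354M replicate 3 or 4. Gata5 and Zfpm2, the FOG2 gene, did not pass the filter, with at most 3 and 17 counts in a group.

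GATA factors work in complexes with TAL1, LDB1, LMO2 and others, and with the red cell factor KLF1. Of 12 such partner genes, 8 fell without the enhancer and 0 rose, with a median log2 difference of -0.723 against -0.051 over all genes. The share of all genes called was 43.3% on enhancer loss, 19.2% with the Gata2 vector and 17.5% with R307W. Klf1 fell most (44.1 ± 9.36 to 1.45 ± 0.372 TPM, log2 difference -5.0, SE 0.44, adjusted p = 6.40e-08), followed by Gfi1b (49.3 ± 8.58 to 5.88 ± 1.65 TPM, -3.19) and Tal1 (30.8 ± 5.0 to 7.07 ± 0.171 TPM, -2.22). The Gata2 vector raised 5 of 12 (median 0.345 against 0.00119): Klf1 by 3.02 on the log2 scale, Gfi1b by 2.17, Runx1 by 1.03, Tal1 by 0.89 and the LDB1-binding protein gene Ssbp3 by 0.86. R307W raised 6 and lowered 1, Lmo2 (median 0.422 against 0.0182), although only 3 of the 12 were called without R307W replicate 4 and 4 by limma on TPM. Tal1 (adjusted p = 0.05) and Tcf12 (adjusted p = 0.0529) lost their calls with DESeq2 size factors.

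With T354M, 0 of 12 partners were called relative to the empty vector (median 0.0256 against 0.0190, 17.4% of all genes called), with 1 at an unadjusted p under 0.05, 0 called by DESeq2 and 0 by limma. Klf1 was at 1.23 ± 0.320 TPM with T354M and 1.45 ± 0.372 TPM with the empty vector (log2 difference -0.26, adjusted p = 0.747). Compared directly with the Gata2 vector, 4 of 12 partners were lower with T354M and 0 higher (median -0.345 against 0.0215, 10% of all genes called). These were Klf1 (-3.27, adjusted p = 5.52e-05), Gfi1b (-1.89, adjusted p = 0.00240), Tal1 (-0.98, adjusted p = 5.81e-04) and Ssbp3 (-0.82, adjusted p = 0.00400). With the replicate number as a block 6 of 12 were called, Ldb1 (-0.44, adjusted p = 0.0167) and Runx1 (-0.63, adjusted p = 0.00238) being added, and DESeq2 also called Runx1 (adjusted p = 0.0270). Between R307W and the Gata2 vector 0 of 12 were called (1.73% of all genes called), with 2 at an unadjusted p under 0.05, 0 by DESeq2 and 0 by limma, and 1 with the replicate number as a block.

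**Figure D5:**
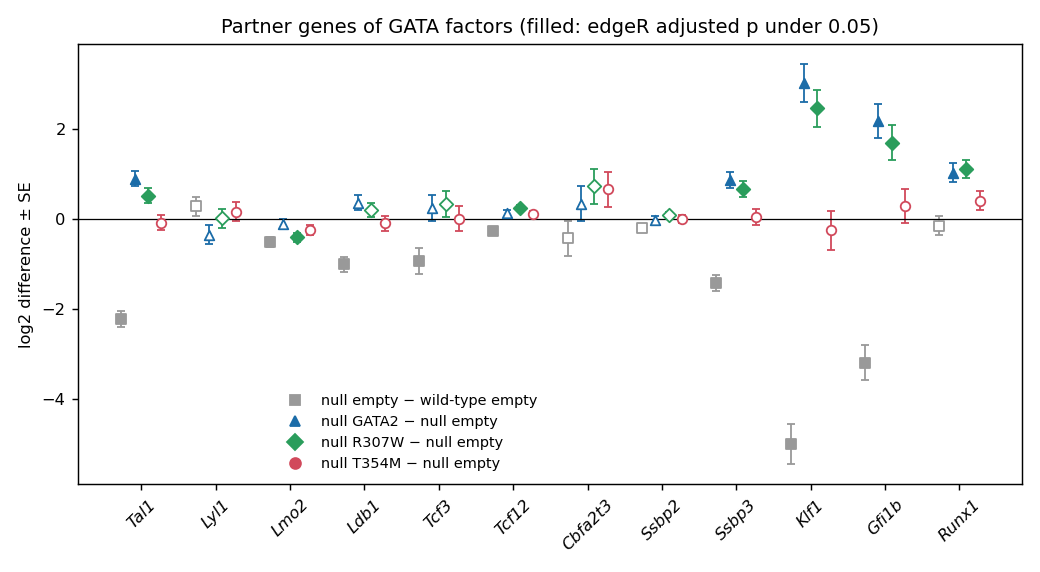
Log2 difference ± SE (edgeR, y axis) of 12 genes whose products work with GATA factors (x axis), on enhancer loss and with each vector relative to the empty vector, filled where the adjusted p is under 0.05. Klf1 goes from -5.0 on enhancer loss to 3.02 with the Gata2 vector, and no T354M point is filled.

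FOG1 recruits the corepressor complexes NuRD and CtBP. Of 15 of their genes, enhancer loss raised 2 and lowered 3 (43.3% of all genes were called), among them Ctbp2 (0.72, adjusted p = 3.00e-05), Mbd2 (-0.70, adjusted p = 1.66e-05) and Mta1 (-0.43, adjusted p = 0.0310), with a median of -0.115 against -0.051 over all genes. The count of 5 was 2 with no filter on low counts or without enhancer-null empty replicate 2 or 3, and 3 without enhancer-null empty replicate 1, without wild-type replicate 3 or 4, or with those 8 libraries alone. The Gata2 vector raised 1, the NuRD helicase gene Chd3 (4.21 ± 0.197 to 10.4 ± 2.26 TPM, log2 difference 1.32, adjusted p = 8.07e-04), and lowered 1, Ctbp2 (-0.37, adjusted p = 0.0232), with a median of 0.101 (19.2% of all genes called). The count was 1 without replicate 4 of all groups, enhancer-null empty replicate 4, Gata2 vector replicate 1 or 4, with no filter, and by limma.

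Of 10 other transcription factor genes of blood stem and progenitor cells, 7 rose and 2 fell on enhancer loss (median 0.72, 43.3% of all genes called). Spi1, the gene of PU.1, an antagonist of GATA1, rose from 36.6 ± 5.93 to 99.8 ± 3.57 TPM (log2 difference 1.37, SE 0.19, adjusted p = 1.09e-05), and Meis1 (1.05) and Etv6 (0.72) rose as well. With the Gata2 vector 3 rose, Myb (1.03), Cebpa (0.67) and Ikzf1 (0.43), and Spi1 fell (-0.71, adjusted p = 0.0126), with a median of 0.183 (19.2% of all genes called).

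Genes that GATA1 is known to drive in red cells followed Gata1 only in part. All 21 tested fell on enhancer loss (median -4.03, the haem enzyme genes Fech and Uros at -2.75 and -2.73). The share of all genes called was 43.3% on enhancer loss, 19.2% with the Gata2 vector and 17.5% with R307W. The Gata2 vector raised 9 and lowered 3 (median 0.431), with Car1 higher by 6.57 on the log2 scale, Icam4 by 3.31 and Ermap by 2.57, and R307W raised 7 and lowered 3 (median 0.105). Their summed level was 4091 to 7043 CPM in wild-type, 280.4 to 912.6 in enhancer-null empty, 295.0 to 644.6 in Gata2 vector, 323.9 to 665.7 in R307W and 212.3 to 319.4 CPM in T354M libraries. So the vectors' ranges lay with the empty vector's and not with wild type's, whereas Gata1 itself stood at 58.4% and 46.1% of its wild-type mean with the Gata2 vector and R307W.

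With T354M, 2 of the 21 were higher and 12 lower than with the empty vector (median -1.38, 17.4% of all genes called), a count of 14 that was 7 without enhancer-null empty replicate 4, 8 without T354M replicate 1 and 9 by limma on log2(TPM + 1). Against the Gata2 vector 14 were lower and 1 higher with T354M (median -1.17, 10% of all genes called), and against R307W 9 were lower (median -1.09, 3.49% of all genes called). R307W and the Gata2 vector differed in 0 of 21 (median -0.22, 1.73% of all genes called), with 7 at an unadjusted p under 0.05. The count was 2 by DESeq2, 0 by limma, 4 with the replicate number as a block, 4 with no filter on low counts, 1 without R307W replicate 4 or without replicate 4 of all groups, and 5 without Gata2 vector replicate 3.

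Markers of other cells moved along with the members, and their part in the results was not tested. On enhancer loss, where 43.3% of all genes were called, 13 of 13 megakaryocyte and 10 of 10 eosinophil genes fell. The mast or basophil list had 12 of 14 lower and 2 higher. The monocyte and macrophage list had 9 of 11 higher and 1 lower. With the Gata2 vector, where 19.2% of all genes were called, 12 of 14 mast or basophil genes and 10 of 10 eosinophil genes rose. In the same comparison 7 of 11 monocyte and macrophage genes fell, and 2 of 13 megakaryocyte genes rose and 2 fell. The histamine enzyme gene Hdc went down by -4.07 and up by 5.32 on the log2 scale in these 2 comparisons, the mast cell protease gene Cpa3 by -4.53 and 5.70, and the eosinophil peroxidase gene Epx by -9.26 and 11.3. The monocyte and macrophage count of 7 was 2 or 3 without enhancer-null empty replicate 1 or 4 or Gata2 vector replicate 1, 2 or 4, and the megakaryocyte count of 4 was 1 or 2 without enhancer-null empty replicate 4 or Gata2 vector replicate 1 or 4.

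Summed eosinophil genes were at 669 to 1063 CPM in wild-type, 19.3 to 27.2 in enhancer-null empty, 1872 to 3304 in Gata2 vector, 1350 to 3400 in R307W and 1107 to 5905 CPM in T354M libraries. Mast cell and basophil genes were at 1131 to 1432, 470 to 579, 2196 to 6313, 1150 to 2255 and 908 to 2146 CPM in the same order, with Tpsb2 at 0 in the enhancer-null empty, Mcpt4 at 0 in the R307W and Tpsab1 at 0 in the T354M libraries. Monocyte and macrophage genes were at 417 to 682, 1966 to 2133, 631 to 1414, 624 to 1414 and 494 to 1459 CPM. R307W did differ from the Gata2 vector in these lists, where 1.73% of all genes were called. Of 14 mast cell and basophil genes 8 were lower with R307W and 0 higher (median -2.48), a count that was 5 by limma. Of 11 tested T cell and innate lymphoid genes 2 were lower. Of 10 eosinophil genes 1 was higher and 1 lower, and 1 of 11 monocyte and macrophage genes was higher. T354M differed from the Gata2 vector in the same lists, where 10% of all genes were called. With T354M 10 of 14 mast cell and basophil genes were lower and 0 higher (median -3.31), a count that was 8 by limma. The T cell and innate lymphoid genes had 7 of 11 lower and 1 higher. The eosinophil genes had 2 of 10 higher and 3 lower, and the monocyte and macrophage genes 1 of 11 higher.

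Of 11 tested T cell and innate lymphoid genes 3 rose and 3 fell on enhancer loss (43.3% of all genes called), and 6 rose and 1 fell with the Gata2 vector (19.2% called). The rises with the Gata2 vector were led by Il1rl1 (6.38), a receptor gene that mast cells also express, Rora (3.01) and Lat (2.15), while Gata3 had 7 counts in that group. Hepatocyte genes were at 178 to 3728 CPM summed over the libraries. By edgeR, 0 of 9 were called on enhancer loss (median -0.787) and 0 with the Gata2 vector (median -0.616). In both comparisons 0 were at an unadjusted p under 0.05, and 0 were called by DESeq2 or by limma. With the replicate number as a block, 5 were called on enhancer loss and 1 with the Gata2 vector. Against wild-type cells, where Gata1 and Zfpm1 were lower with each vector, hepatocyte genes had negative medians as well. With R307W 3 of 9 were lower (median -1.68, 33.5% of all genes called), with 9 at an unadjusted p under 0.05, 8 called by DESeq2 and 0 by limma. That count was 0 without wild-type replicate 1 or R307W replicate 2, 3 or 4, 1 without wild-type replicate 2, 8 without wild-type replicate 3 and 9 without R307W replicate 1. With the Gata2 vector (median -1.29, 30.7% of all genes called) and T354M (median -1.14, 37% called) edgeR called 0 of 9. In that order 3 and 1 were at an unadjusted p under 0.05, and 0 were called by DESeq2 or limma. The counts were 1 without wild-type replicate 3 and 3 without T354M replicate 1. With the replicate number as a block, 9 of 9 hepatocyte genes were called with each of the 3 vectors against wild type. Endothelial and stromal genes, at 69.9 to 195 CPM summed, had 2 of 10 higher on enhancer loss, and 2 higher and 4 lower with the Gata2 vector, a count of 6 that was 3 without Gata2 vector replicate 2 or 4.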

How the data were processed

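Total RNA of 20 libraries was amplified with a NuGEN Ovation kit, per the labels. The submitters' processing notes name STAR (2.5.2b), RSEM (1.3.0) and the build mm10. The deposited tables hold RSEM's expected count per gene, which splits reads shared between genes, and the TPM and FPKM the authors scaled from it by length and library total. Strand was not stated. Expected counts were rounded, 15835 genes were kept by filterByExpr, and after TMM scaling a single edgeR 4.0.16 model over every library (15 residual degrees of freedom) gave quasi-likelihood F tests for the 10 pairs of groups. P-values were adjusted by Benjamini-Hochberg within a pair, and a gene under 0.05 was counted as called. The SE is the log2 difference divided by the square root of F. TPM gave levels, shares and exact permutation tests. FPKM served in 1 alternative. Symbols came from GENCODE M21 for 53274 identifiers, and 105 without one held at most 0.0148% of counts.

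The members and lists were chosen with earlier results of these data known. Named genes were the members and their family, in each list the 3 lowest adjusted p on enhancer loss and the 3 lowest with the Gata2 vector, and for each member the 5 nearest profiles among genes of at least 5 CPM in some group, without predicted, ribosomal, mitochondrial and pseudogene symbols. One gene that this rule names is not reported here. Where few were called, others were named after their values were seen (Ssbp3, Runx1, Lmo2, Ldb1, Tcf12, Cd3d, Cd3e, Bcl11b). Same-numbered libraries deviated together in all 4 pairs (r from 0.124 to 0.667) for the enhancer-null empty and Gata2 vector groups and among the 3 vector groups, which were taken as paired. This pairing is not certain. Among the vector groups unlike-numbered libraries reached r of 0.221, 0.302 and 0.338, where the lowest same-numbered r was 0.219, 0.159 and 0.204. The replicate block was fitted over all 20 libraries, the wild-type ones included. Alternatives were DESeq2 1.42.0, limma 3.58.1 on log2(TPM + 1) and log2(TPM + 0.1), library totals, DESeq2 size factors, no filter, 8 libraries alone, the replicate block, and leaving out libraries. A block over the 16 enhancer-null libraries was added after seeing the data. The edgeR step was tested on simulated counts. No 2 libraries of a group were duplicates.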

Additional observations from a re-analysis of the deposited data

Results flagged for a closer look

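Among 40 sets of 4 libraries examined, 1 held a library far from the other 3: Gata3 at 0.16 TPM in Gata2 vector replicate 3, against 0.01 to 0.03 TPM in the other 3 libraries of that group. The gap was 0.867 of the range, over Dixon's 95% critical value for 4 samples, which chance passes in about 1 of 20 sets. The value rests on 2 counts.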

How the results depend on the processing

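No alternative turned the direction of a result that was called, and no edgeR call on the members changed with DESeq2 size factors. FPKM shares and shares of expected counts changed no call on the Gata1 share. With DESeq2 size factors Trps1 was called in T354M minus empty, and Tal1 and Tcf12 lost their calls in R307W minus empty (adjusted p = 0.05 and 0.0529). Against wild type, Gata2 with the Gata2 vector was called with library totals (0.93), with no filter (0.92), by DESeq2 (0.87), by limma with 1 and 0.1 added (1.14 and 1.19) and with the replicate block (0.79), and limma also called R307W (0.80 and 0.83) and T354M (1.04 and 1.08). No filter moved the median over all genes to -0.176 (enhancer loss), -0.176, -0.143 and -0.188 (3 vectors against wild type), and limma with 0.1 to 0.134 (R307W) and 0.141 (T354M). Gata1 with the Gata2 vector against wild type lost its call with library totals (-0.82) and limma (-0.80 and -0.82). With the 8 libraries alone calls were lost for Gata1 in T354M minus empty (1.12) and minus R307W (-1.58) and for Zfpm1 in Gata2 vector minus wild type (-1.22). Zfpm1 in T354M minus empty was called with the replicate block (1.11), by DESeq2 (1.11), by limma (1.20 and 1.44) and with the block over 16 libraries (1.08).

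The replicate block called T354M minus Gata2 vector for Gata2 (-0.62; over 16 libraries -0.63) and Zfpm1 (-0.92 in both). Counts under the block were 5 hepatocyte and 4 endothelial genes on enhancer loss, 9 hepatocyte genes in each vector group minus wild type, 1 hepatocyte gene with the Gata2 vector (6 over 16 libraries), 2 partners in T354M minus empty (2), and 1 partner (1) and 4 erythroid genes (3) in R307W minus Gata2 vector. Over 16 libraries 7 partners differed in T354M minus Gata2 vector. Beside these and the 2 block calls given above (Gata2 in Gata2 vector minus wild type, Zfpm1 in T354M minus empty), it changed no call on the 4 members. Numbers were not taken to pair wild-type libraries with others (lowest same-numbered r -0.105), nor empty with R307W (0.0192) or T354M (0.0619), although r was positive in every same-numbered pair of those last groups. Paired sign flips of the Gata1 share cannot pass (smallest p 0.125), with differences of -16.5, -15.3, -15.5, -41.3, -25.9, -25.7, -31.8, -32.1 and -57.8 percentage points, nor can 3 against 3 (0.1) without replicate 4 of all groups, with -17.6, -14.8, -16.2, -43.3, -28.5, -27.1, -32.4, -33.8 and -60.9, in the order enhancer loss, Gata2 vector, R307W and T354M minus empty, T354M minus Gata2 vector and minus R307W, and the 3 vectors minus wild type.

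Other counts were: corepressors on enhancer loss 2 (no filter) and 3 (8 libraries), and with the Gata2 vector 1 (no filter, limma, without replicate 4 of all groups); hepatocyte genes against wild type 1 with the Gata2 vector (no filter) and, with R307W, 9 (no filter), 8 (DESeq2) and 0 (library totals, 8 libraries, limma); endothelial genes on enhancer loss 4 (limma), and with the Gata2 vector 3 (limma with 0.1, without replicate 4); megakaryocyte genes 2 (without replicate 4); partners in R307W minus empty 4 (limma); erythroid genes in T354M minus empty 9 (limma with 1), and in R307W minus Gata2 vector 4 (no filter), 2 (DESeq2) and 1 (without replicate 4).

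Leaving out 1 library at a time gave, for Gata1, 0.73 to 1.36 in T354M minus empty, -1.99 to -1.24 in T354M minus R307W and -1.17 to -0.68 in Gata2 vector minus wild type. Gata2 in Gata2 vector minus wild type ran from 0.52 to 1.11. Zfpm1 ran from 1.40 to 2.02 in R307W minus empty, from 0.75 to 1.44 in T354M minus empty and from -1.66 to -0.86 in Gata2 vector minus wild type. Counts ran from 2 to 5 (corepressors) on enhancer loss, and with the Gata2 vector from 1 to 2 (corepressors), 1 to 4 (megakaryocyte), 2 to 7 (monocyte and macrophage) and 3 to 5 (endothelial). Hepatocyte genes against wild type ran from 0 to 1 with the Gata2 vector, 0 to 9 with R307W and 0 to 3 with T354M. Partners in R307W minus empty ran from 3 to 7, and erythroid genes from 7 to 14 in T354M minus empty and from 0 to 5 in R307W minus Gata2 vector. The cause of these changes was not tested. Low counts limit Gata3, and 4 libraries per group limit the exact tests.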
